A study of Mus musculus with 24 samples.

Results

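The 76 genes described here encode proteins of the mitochondrial ribosome, measured in C2C12 cells, a mouse myoblast line, on a pair of Affymetrix oligonucleotide array designs labelled MA and MB. They are the genes whose annotated symbol begins with Mrpl or Mrps followed by a digit, out of 18193 genes that a probe set of the designs names alone. The rule gave 47 genes with a large subunit symbol and 29 with a small subunit symbol, with 160 probe sets. Symbols do not always give a protein's place: Mrps18a and Mrps30 are now placed in the large subunit, and Mrps36 outside the ribosome. Subunit counts below follow the symbols all the same. Each gene was read from its brightest probe set over the 12 arrays, with MA preferred, so that 74 were read on MA and 2, Mrps10 and Mrps27, on MB. Mrpl30 and Mrpl53 matched only probe sets that also name another gene, and were left out.

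The 4 groups, each with 3 cultures on both designs, were cells in DM with 5 mM glucose, cells in DM with 25 mM glucose, cells in GM with 5 mM glucose and cells in GM with 25 mM glucose. All groups were the same unmodified line, and the labels give neither a spelled-out name for the media nor a time in them. The study asked whether calorie restriction, here the lower glucose, affects the differentiation of skeletal myoblasts. Nothing in the labels says that the 3 numbered samples of a group came from separate experiments, so p-values measure the spread between these samples, which may be technical.

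Mitochondria keep a small genome whose few mRNAs, all for subunits of the respiratory chain and the ATP synthase, are translated inside the organelle by a ribosome of its own. The rRNAs of that ribosome are copied from mitochondrial DNA, while all of its proteins are encoded in the nucleus, made in the cytosol and imported. Some of these proteins descend from those of bacterial ribosomes and others are found only in mitochondria. Skeletal muscle fibres are rich in mitochondria, and respiratory enzymes increase when myoblasts fuse into myotubes.

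The labels were checked against markers. All 7 skeletal muscle markers, among them Myog, a transcription factor of myogenesis, and Myh3, the embryonic myosin heavy chain, were higher in DM at both glucose levels, with summed intensities of 19608 to 33659 in DM at 5 mM and 26481 to 45735 in DM at 25 mM, against 84.8 to 184 in GM at 5 mM and 141 to 227 in GM at 25 mM. Of the markers of other cell types, 4 adipocyte markers summed to 67.6 to 119 in DM and 283 to 370 in GM, most of it Cebpa, while Adipoq and Lep averaged between 1.6 and 10.2 in every group. The 6 blood and endothelial markers summed to 102 to 175 in DM and 171 to 303 in GM, of which Cd14 averaged 34.0 to 46.6 in DM and 117 to 132 in GM, and Ptprc, which marks blood cells, stayed between 6.9 and 15.4. A further 4 osteoblast markers summed to 100.03 to 262 in DM and 109.8 to 340.2 in GM. The part of these markers in the results below was not tested. The cultures also fell apart by the arrays' control probe sets for 18S rRNA. In 4 cultures (DM at 5 mM number 2, DM at 25 mM number 3, GM at 5 mM numbers 1 and 2) this control read 3.71 to 9.84 on MA, against 139 to 801 in the other 8. All 3 cultures of GM at 25 mM were in the high set. Calls that were lost among the 8 high cultures alone, or gained with the split as a block, are named below.

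Promoter sequences of the genes whose changes are described below come first, taken from RefSeq (GRCm38.p6). A window of 250 bases before to 50 bases after the start was held for 67 of the 76 genes. Mitochondrial ribosomal protein genes are known as targets of nuclear factors that bind near housekeeping promoters, among them NRF1, the ETS-family factor GABP and YY1. The stretches are the 150 bases before the start that the promoter table gives for a gene (the first where it lists several), 5′ to 3′ on the gene's strand, and were chosen after the changes were seen. For Mrps10, Mrpl22 and Mrpl24 this start lies inside the annotated gene, which begins further upstream, while for the other 4 it is where the gene begins. Mrps10 (chr17:47369047-47369196, plus strand) and Mrpl22 (chr11:58171514-58171663, plus strand) were higher in DM at both glucose levels. Mrpl3 (chr9:105053118-105053267, plus strand), Mrps22 (chr9:98601680-98601829, minus strand) and Mrpl17 (chr7:105811088-105811237, minus strand) were called higher at 25 mM glucose. Mrpl12 (chr11:120484487-120484636, plus strand) was called higher at 5 mM glucose. Mrpl24 (chr3:87919394-87919543, plus strand) was lower in DM at both. Capitals mark the ETS letters CCGGAAG or the NRF1 letters (GCGCA, any base, GCGC), on either strand.
Mrps10: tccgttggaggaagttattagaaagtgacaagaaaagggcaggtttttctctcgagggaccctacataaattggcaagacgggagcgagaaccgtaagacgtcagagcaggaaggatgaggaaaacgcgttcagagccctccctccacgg
Mrpl22: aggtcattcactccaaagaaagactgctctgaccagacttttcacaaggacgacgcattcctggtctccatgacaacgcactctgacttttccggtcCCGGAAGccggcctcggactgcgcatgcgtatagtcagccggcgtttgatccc
Mrpl3: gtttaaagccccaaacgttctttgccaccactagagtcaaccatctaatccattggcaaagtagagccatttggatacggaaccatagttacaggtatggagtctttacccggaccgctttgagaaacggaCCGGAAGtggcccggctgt
Mrps22: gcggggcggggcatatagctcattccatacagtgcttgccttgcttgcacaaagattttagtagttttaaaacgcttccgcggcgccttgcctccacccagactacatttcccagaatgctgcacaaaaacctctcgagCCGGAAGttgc
Mrpl17: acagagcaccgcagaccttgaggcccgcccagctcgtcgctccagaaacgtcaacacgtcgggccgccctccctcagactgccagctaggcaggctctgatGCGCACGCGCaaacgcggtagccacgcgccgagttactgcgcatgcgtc
Mrpl12: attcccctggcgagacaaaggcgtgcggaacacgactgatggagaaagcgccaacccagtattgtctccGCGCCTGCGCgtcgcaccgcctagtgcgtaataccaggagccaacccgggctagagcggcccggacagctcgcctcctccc
Mrpl24: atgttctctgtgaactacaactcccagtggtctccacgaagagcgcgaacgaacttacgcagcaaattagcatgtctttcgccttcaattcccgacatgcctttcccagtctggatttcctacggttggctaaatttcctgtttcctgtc

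The ETS letters ended 47 bases before the start in Mrpl22, 13 bases before it in Mrpl3 and 5 bases before it in Mrps22. The NRF1 letters ended 72 bases before the start in Mrpl12 and 40 bases before it in Mrpl17. The stretches of Mrps10 and Mrpl24 held neither.

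Over the whole windows of 300 bases around the first listed start of each gene, searched on both strands, the ETS letters were found in 24 of the 67 genes (35.8%), against 11.9% of 17492 protein-coding genes. The NRF1 letters were found in 12 genes (17.9%), against 6.60% of all. The YY1 letters AANATGGCG were found in 11 genes (16.4%), against 3.30% of all. At least 1 of the 3 was present in 39 genes (58.2%), against 19.4% of all. A YY1 match can share its outer bases with an ETS or an NRF1 match. The windows also differed in composition, with a median of 21 CpG pairs in the mitochondrial ribosomal protein genes and 13 over all genes, and a median GC share of 58.3% against 56.3%. The part of composition in the motif shares was not tested. Of the 11 genes with a window that were higher in DM at either glucose level, 8 held at least 1 of the motifs, and of the 8 genes that were lower, 2 did. These are counts of letters in genes already chosen by their change, not of bound sites.

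**Figure D1:**
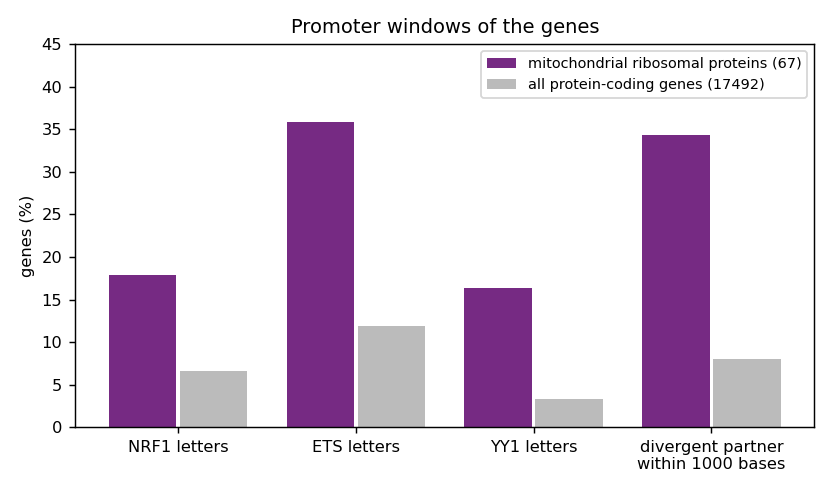
Share of promoter windows (percent of genes, y axis) that held the NRF1, ETS or YY1 letters, and share of genes with a start on the opposite strand within 1000 bases upstream. Purple bars are the 67 mitochondrial ribosomal protein genes with a window and grey bars all 17492 protein-coding genes; the purple bar is the taller in each of the 4 pairs, 35.8% against 11.9% for the ETS letters.

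A second feature of these promoters was their sharing. Another protein-coding gene started within 1000 bases upstream on the opposite strand in 23 of the 67 genes (34.3%), against 8.04% of all protein-coding genes. Mrpl46 and Mrps11, a large and a small subunit protein, form such a pair with starts 42 bases apart. Their log2 changes between DM and GM were 0.33 and 0.06 at 5 mM and 0.32 and 0.30 at 25 mM glucose, and neither was called. The pairs did not always move together. Mrpl51 and Ncapd2, a condensin subunit that works in mitosis, start 614 bases apart. Ncapd2 fell by 2.08 on the log2 scale in DM at 5 mM (limma, adjusted p = 7.67e-08) and fell by 1.48 at 25 mM (adjusted p = 2.28e-06), while the log2 changes of Mrpl51 were -0.06 at 5 mM and 0.23 at 25 mM, neither called. Mrpl27 and Eme1, a subunit of a DNA repair nuclease, start 48 bases apart. Eme1 was lower in DM by 0.86 at 5 mM (limma, adjusted p = 0.0235) and by 0.80 at 25 mM (adjusted p = 0.028), against changes of -0.02 and 0.13 in Mrpl27 that were not called. Psma2, a proteasome subunit that starts 205 bases from Mrpl32, was higher in DM by 0.41 at 5 mM (limma, adjusted p = 0.0119) and by 0.66 at 25 mM (adjusted p = 0.000345), and Mrpl32 was called at neither, with changes of 0.00 and 0.29.

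At 25 mM glucose the mitochondrial ribosomal protein genes changed little between DM and GM, and in both directions. Values were compared as log2(intensity + 20) with limma over all probe sets above the 40th percentile of mean intensity on a design, and a gene was called at a Benjamini-Hochberg adjusted p under 0.05. All 76 genes lay above that filter. In DM 12 of them were higher (15.8%) and 6 lower (7.89%), against 9.83% higher and 11.5% lower among all 27081 probe sets tested. Among the 13575 probe sets on MA, the design that carries nearly all of these genes, 15.3% were higher and 20.3% lower, 35.6% in either direction, and the share was 40.9% among the MA probe sets of like intensity. So the share of these genes that was called higher was close to the MA background, and the share called lower was below it. The median log2 change was 0.13, against -0.09 over all probe sets, and 51 of the 76 changes were above 0. These intensities come from whole cultures, so fewer cells of a type and less RNA per cell cannot be told apart.

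No gene of the family was called with a change of 2-fold or more, which 9.15% of all probe sets were. The changes ran from -0.76 (Mrps24) to 0.84 (Mrps10), and for 68 of the 76 genes the 95% interval of the change lay within 2-fold in either direction. In 18 genes every DM culture was above every GM culture, and in 6 every DM culture was below; among all probe sets the shares were 15.4% and 20.3%. When each array was centred on its median, which moves the median of all probe sets by more than 0.1, to 0.07, the split became 28 higher and 2 lower, against 13.2% and 6.98% of all probe sets, and the family's median 0.33. The shares in this paragraph are over both designs, and MA alone was not counted for them. Before centring, 15.3% of the MA probe sets were called higher, against 9.83% over both designs. The directions of the called genes did not turn under median centring or quantile normalization.

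**Figure D2:**
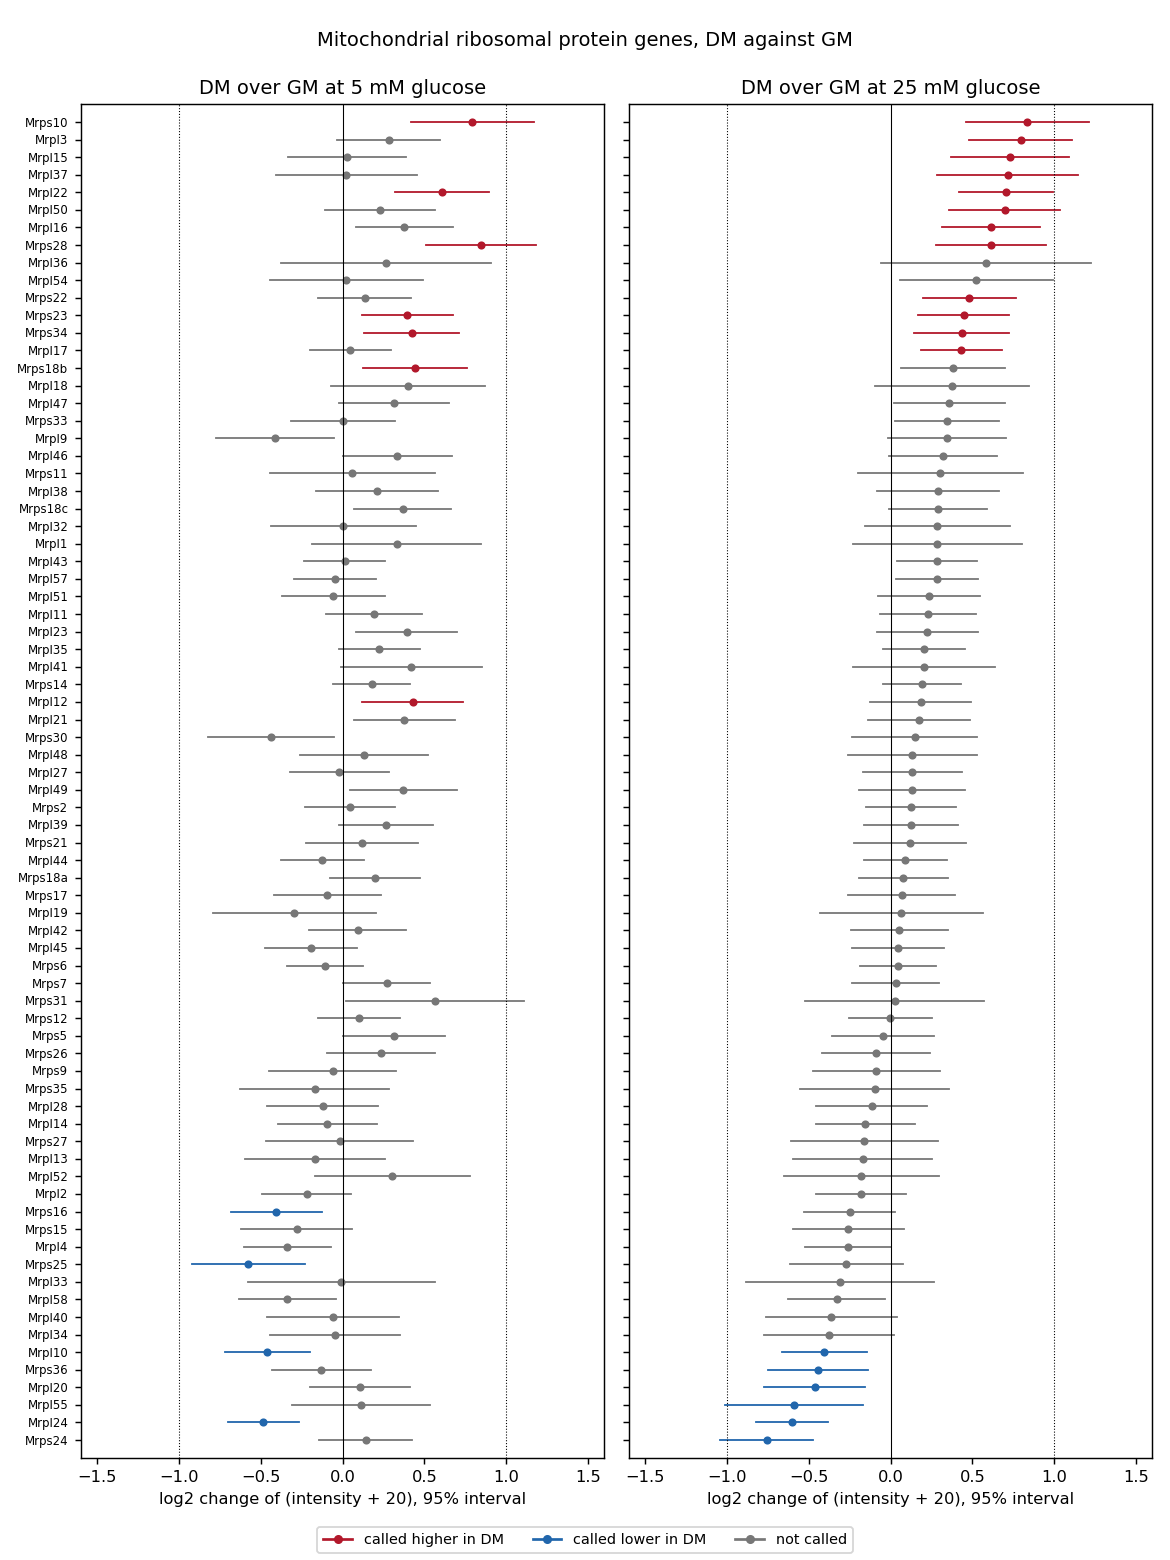
Log2 change of (intensity + 20), DM over GM, at 5 mM (left) and 25 mM glucose (right) for each of the 76 genes, ordered by the change at 25 mM; points are estimates and lines 95% intervals of the limma fit, red where a gene was called higher in DM, blue where lower, grey where not called. Dotted lines mark 2-fold; no point lies beyond them, with 12 red and 6 blue genes at 25 mM, and 7 and 4 at 5 mM.

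Among the 12 higher genes, Mrps10, a small subunit protein with a bacterial counterpart, had the largest change. It read 1200, 1427 and 1198 in DM at 25 mM, against 742, 661 and 711 in GM at 25 mM, a log2 change of 0.84 (SE 0.18, limma, adjusted p = 0.00534). The DM cultures all lay above the GM cultures. It is the only called gene of the family read on MB, and its other MB probe set, a dimmer one, gave -0.28 (SE 0.72), which was not called. Mrpl3, a large subunit protein whose bacterial counterpart lies near the peptidyl transferase centre, read 366, 343 and 394 in DM, against 234, 180 and 198 in GM, a change of 0.79 (SE 0.15, adjusted p = 0.000713). A second MA probe set of Mrpl3 was also called higher, by 0.64 (SE 0.19, limma, adjusted p = 0.0194). Mrpl22, whose bacterial counterpart lines the exit tunnel, read 483, 543 and 492 in DM, against 300.2, 314 and 294 in GM, a change of 0.70 (SE 0.13, adjusted p = 0.000909).

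Other genes higher in DM at 25 mM had changes between 0.43 and 0.73. Mrpl50, a large subunit protein found only in mitochondria, averaged 270 ± 26.3 in DM and 158 ± 9.55 in GM (SD, n = 3 each). With its second probe set Mrpl50 was not called. Mrpl16, which in bacteria sits at the site where tRNAs enter, averaged 515 ± 76.4 in DM and 328 ± 40.2 in GM, and Mrps28, a small subunit protein, 195 ± 18.5 in DM and 121 ± 16.4 in GM. In each of these 3 the DM and GM cultures did not overlap. Mrps22, a mitochondria-specific small subunit protein in which human mutations cause disease, averaged 270 ± 41.7 in DM and 186 ± 9.75 in GM, a change of 0.48 (SE 0.13, limma, adjusted p = 0.0112). Mrps34, another such protein of the small subunit, averaged 530 ± 51.7 in DM and 389 ± 58.7 in GM. Mrpl37, found only in mitochondria, averaged 160 ± 25.3 in DM and 92.1 ± 35.8 in GM, and did not overlap. Mrpl15 and Mrpl17, both with bacterial counterparts, were called higher by 0.73 (SE 0.17) and 0.43 (SE 0.12), but their other probe sets did not all follow: the next brightest Mrpl17 probe set gave -0.43 (SE 0.24), and the Mrpl15 probe set used is of a type that can bind several transcripts, with a change of -0.42 (SE 0.35) where such types were left out. Mrps23, of the small subunit, averaged 322 ± 18.1 in DM and 232 ± 29.9 in GM, and a second MA probe set of it was called higher as well, by 0.79 (SE 0.21, limma, adjusted p = 0.00787). Among the 8 high 18S cultures alone, Mrps22 (limma, adjusted p = 0.0702) and Mrps23 (adjusted p = 0.0528) were not called at 25 mM.

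The 6 genes lower in DM at 25 mM were led by Mrps24, the counterpart of a bacterial small subunit protein at the entry of the mRNA channel. It read 187, 173 and 229 in DM, against 327, 380 and 328 in GM, a change of -0.76 (SE 0.13, limma, adjusted p = 0.00047). Mrpl24, whose bacterial counterpart takes part early in large subunit assembly, read 331, 306 and 301 in DM, against 493, 502 and 460 in GM, a change of -0.60 (SE 0.10, adjusted p = 0.000366). In both genes the lowest GM culture stood above the highest DM culture by a wide margin. Mrpl10, a protein of the stalk that recruits translation factors, read 322, 316 and 294 in DM, against 427, 365 and 466 in GM, a change of -0.40 (SE 0.12, adjusted p = 0.0179). Mrpl20, a large subunit protein with a bacterial counterpart, fell by 0.46 (SE 0.14), and Mrpl55, found only in mitochondria, by 0.59 (SE 0.20), with 1 of its 3 GM cultures far above the others. Mrps36 averaged 223 ± 18.7 in DM and 311 ± 38.9 in GM, a change of -0.45 (SE 0.14); its product was named for the ribosome and is now assigned to the oxoglutarate dehydrogenase complex. With each array centred on its median, Mrps24 and Mrpl24 remained called, and the other 4 were not (adjusted p between 0.135 and 0.231). Among the 8 high 18S cultures alone, the same 4 (Mrpl10, Mrpl20, Mrpl55 and Mrps36) were not called either (adjusted p between 0.0584 and 0.099). Without culture 3 of DM at 25 mM, 2 of the family were called lower, and without culture 3 of GM at 25 mM, 3. The calls of Mrpl3, Mrpl15, Mrpl16, Mrpl17, Mrpl22, Mrpl24, Mrpl50, Mrps10, Mrps24 and Mrps28 at 25 mM held with any 1 culture left out, while those of the other 8 did not.

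**Figure D3:**
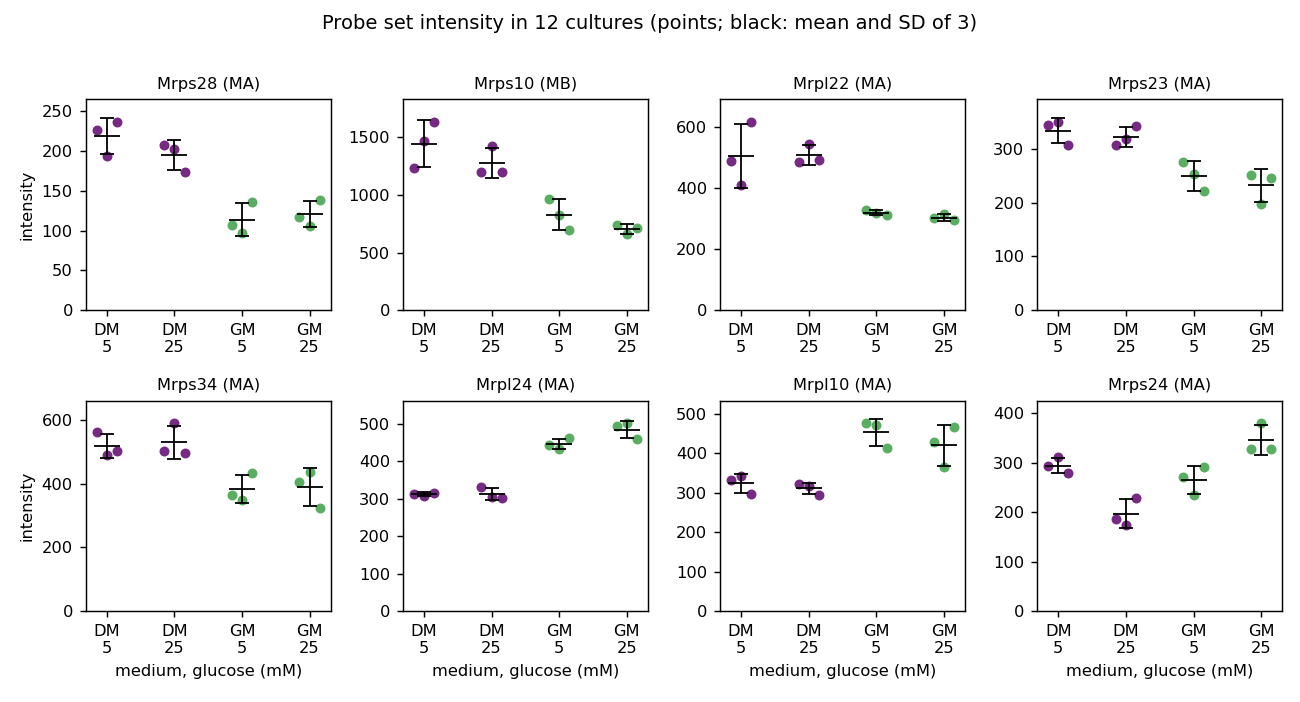
Probe set intensity (y axis from 0) in each culture for 8 genes, with media and glucose in mM on the x axis; coloured points are cultures and black marks the mean and SD of 3. In the first 5 panels all DM points lie above all GM points at the same glucose, in Mrpl24 and Mrpl10 all lie below, and in Mrps24 they do so at 25 mM alone.

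At 5 mM glucose fewer genes were called. In DM 7 of the 76 were higher (9.21%) and 4 lower (5.26%), against 7.52% higher and 10.1% lower among all probe sets. On MA the shares were 12% higher and 17% lower, 29.0% in either direction, and 34.0% among MA probe sets of like intensity, so both shares of the family were below those of MA. The median log2 change was 0.10, against -0.03 over all probe sets. In 17 genes every DM culture was above every GM culture and in 9 every one was below. Among all probe sets of both designs the shares were 13.6% and 17.7%. The changes ran from -0.58 (Mrps25) to 0.84 (Mrps28), none was called at 2-fold or more on the probe sets used, against 8.08% of all probe sets, and the 95% intervals of 73 genes lay within 2-fold. The count of higher genes depended on single cultures: it was 3 without DM at 5 mM culture 1, 3 without culture 3 of that group, 4 without GM at 5 mM culture 1 and 3 without culture 2 of it. The count of lower genes was 2 without GM at 5 mM culture 1. The calls of Mrpl10, Mrpl22, Mrpl24 and Mrps28 held with any 1 culture left out, and those of the other 7 did not.

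The largest rise at 5 mM was that of Mrps28. It read 226, 193 and 236 in DM, against 107, 96.6 and 136 in GM, a change of 0.84 (SE 0.16, limma, adjusted p = 0.000837). Mrps10 read 1235, 1474 and 1634 in DM, against 962, 830 and 694 in GM, a change of 0.79 (SE 0.18, adjusted p = 0.00911). Mrpl22 read 486, 409 and 615 in DM, against 327, 317 and 312 in GM, a change of 0.61 (SE 0.13, adjusted p = 0.00302). The GM cultures lay close together in Mrpl22, and the DM cultures were spread but all higher. Mrps18b averaged 233 ± 14.4 in DM and 166 ± 5.68 in GM, a change of 0.44 (SE 0.15, adjusted p = 0.0368). Mrps34 read 562, 490 and 501 in DM, against 365, 350 and 433 in GM, a change of 0.42 (SE 0.14, adjusted p = 0.0307). Mrps23 read 345, 350 and 307 in DM, against 276, 252 and 221 in GM, a change of 0.39 (SE 0.13, adjusted p = 0.034). With its second probe set Mrps23 was not called at 5 mM. Mrpl12, the stalk protein that contacts translation factors and is also known to bind the mitochondrial RNA polymerase, averaged 434 ± 52.9 in DM and 319 ± 59.1 in GM, a change of 0.43 (SE 0.14, adjusted p = 0.0372), and its DM and GM cultures overlapped. Among the 8 high 18S cultures, where GM at 5 mM has 1 culture, Mrpl12, Mrps18b, Mrps23 and Mrps34 were not called (limma, adjusted p between 0.0975 and 0.394).

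Among the genes lower in DM at 5 mM, Mrps25, a small subunit protein found only in mitochondria, averaged 94.0 ± 9.79 in DM and 150.3 ± 18.6 in GM, a change of -0.58 (SE 0.16, limma, adjusted p = 0.0144), though its second probe set gave -0.01. Mrpl24 read 314, 308 and 317 in DM, against 443, 434 and 462 in GM, a change of -0.48 (SE 0.10, adjusted p = 0.00232). Its cultures lay close together within each medium, with SDs of 4.65 in DM and 14.2 in GM. Mrpl10 read 333, 341 and 296 in DM, against 476, 470 and 414 in GM, a change of -0.46 (SE 0.12, adjusted p = 0.00981). Mrps16, with a bacterial counterpart, averaged 418 ± 57.2 in DM and 557 ± 8.59 in GM, a change of -0.41 (SE 0.13, adjusted p = 0.0299). Among the 8 high 18S cultures, Mrpl10, Mrps16 and Mrps25 were not called (limma, adjusted p between 0.205 and 0.276).

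Set side by side, the 2 glucose levels shared 7 calls. Mrpl22, Mrps10, Mrps23, Mrps28 and Mrps34 were higher in DM at both, and Mrpl10 and Mrpl24 lower at both; 5.87% of all probe sets were higher at both and 6.98% lower at both. Those shares are over both designs, and MA alone was not counted. The 2 comparisons share no culture. A further 4 genes were called at 5 mM alone (Mrpl12, Mrps16, Mrps18b, Mrps25) and 11 at 25 mM alone (Mrpl3, Mrpl15, Mrpl16, Mrpl17, Mrpl20, Mrpl37, Mrpl50, Mrpl55, Mrps22, Mrps24, Mrps36), while 54 were called at neither and 0 in opposite directions. A call at 1 glucose level is not by itself a difference between the levels; that difference was tested as the interaction given below.

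**Figure D4:**
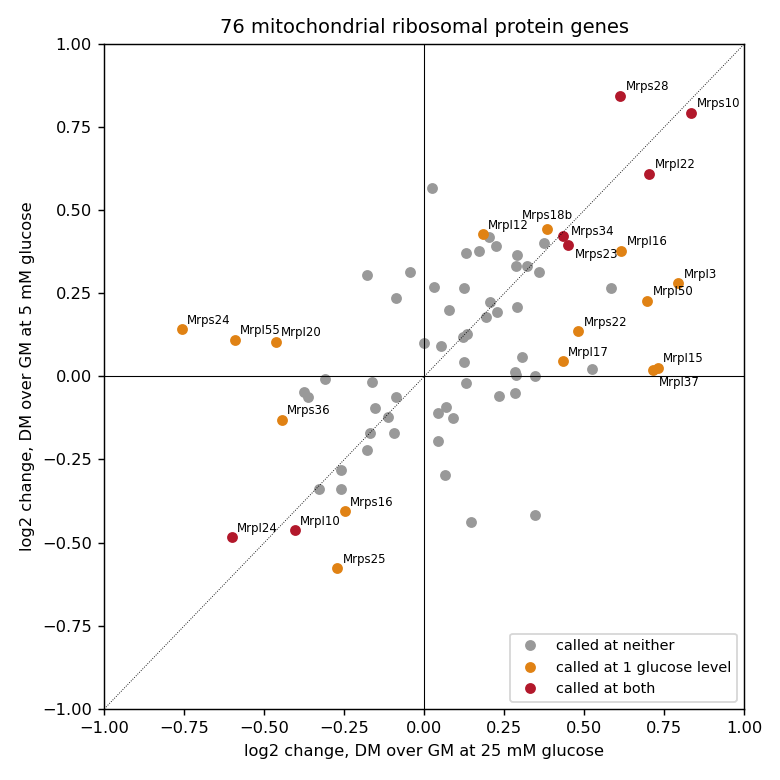
Log2 change of (intensity + 20), DM over GM, at 25 mM glucose (x axis) and at 5 mM glucose (y axis) for the 76 genes; the dotted diagonal marks equal changes. The 7 genes called at both levels (dark red) lie near the diagonal, and Mrps24 lies farthest to the left, at -0.76 on the x axis and 0.14 on the y axis.

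Lower glucose changed none of these genes past the threshold. In DM, 5 mM against 25 mM, 0 of the 76 were called higher or lower by limma, against 0.864% of all probe sets, with 3 at an unadjusted p under 0.05 (3.95%, against 8.04% of all). In GM 0 were called, against 0.00369% of all probe sets, with 8 at an unadjusted p under 0.05 (10.5%, against 8.88%). The median log2 changes were 0.01 in DM and 0.04 in GM. The 95% intervals of all 76 genes in DM, and of 74 in GM, lay within 2-fold in either direction. In the interaction, the DM change minus the GM change with glucose, 0 were called, against 0.284% of all probe sets, with 9 at an unadjusted p under 0.05 (against 9.21% of all).

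Mrps24 came nearest to a dependence on glucose. It read 294, 311 and 278 in DM at 5 mM, against 187, 173 and 229 in DM at 25 mM, a log2 change of 0.54 (SE 0.13, limma, adjusted p = 0.0599). In GM it ran the other way, with 270.0, 235 and 291 at 5 mM, against 327, 380 and 328 at 25 mM, a change of -0.36 (SE 0.13, adjusted p = 0.431). The cultures at the 2 levels did not overlap in either medium. The interaction was 0.90 (SE 0.19, limma, adjusted p = 0.0506), just outside the threshold. With the 18S split as a block the values were 0.54 (adjusted p = 0.0198) in DM and 0.95 (adjusted p = 0.0233) for the interaction, and Mrps24 was the 1 gene of the family called in either, against 2.26% of all probe sets in DM and 0.48% in the interaction. Without the block, 1 gene was called in DM when culture 3 of DM at 25 mM was left out, and 1 in the interaction without that culture or without culture 3 of GM at 5 mM. A dimmer probe set of Mrps24 did not show the pattern, with DM over GM changes of -0.26 (SE 0.26) at 5 mM and -0.35 (SE 0.26) at 25 mM. Both Mrps24 probe sets are of a type that can bind more than 1 transcript. The closest patterns over the 12 cultures within the family were those of Mrpl55 (Pearson r = 0.73) and Mrpl20 (0.67), both also lower in DM at 25 mM alone. Group means were kept in these correlations, so they largely restate those calls. Mrpl55 averaged 104 ± 7.73 in DM at 5 mM and 83.4 ± 6.2 in DM at 25 mM, against 94.6 ± 9.29 in GM at 5 mM and 141 ± 51.2 in GM at 25 mM.

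Of the 8 genes of known function picked by name and not by change, Mrpl12, Mrps22 and Mrps34 were called and are described above. The rest of the 8 were called at neither glucose level on the probe sets used. Mrps12, whose bacterial counterpart sits at the decoding centre, averaged 297 ± 28.1 in DM at 5 mM and 292 ± 16.9 in DM at 25 mM, against 275 ± 15.9 in GM at 5 mM and 293 ± 22.8 in GM at 25 mM (SD, n = 3 each). The interval of its change ran from -0.15 to 0.35 at 5 mM and from -0.25 to 0.25 at 25 mM. Mrps7, a small subunit protein with a bacterial counterpart, had changes of 0.27 at 5 mM and 0.03 at 25 mM. Mrpl44, a protein related to RNase III in which human mutations cause cardiomyopathy, had changes of -0.13 and 0.09, and Mrpl11, at the base of the stalk, 0.19 and 0.23. A dimmer probe set of Mrpl11, of a type that can bind several transcripts, was called lower at 25 mM, with -0.71 (SE 0.20, limma, adjusted p = 0.0145). Mrpl41 had changes of 0.42 and 0.20, neither called, with DM cultures at 5 mM that ranged from 285 to 523. At 25 mM it was called higher with the 18S split as a block (0.37, adjusted p = 0.028) and among the 8 high cultures (0.39, adjusted p = 0.0461), and at 5 mM a dimmer probe set of it was called higher by 0.87 (SE 0.21, limma, adjusted p = 0.00531). The paralogs of bacterial protein S18 differed in calls but not in direction. Mrps18b was called at 5 mM (above), while Mrps18c, with changes of 0.37 at 5 mM (limma, adjusted p = 0.0638) and 0.29 at 25 mM, and Mrps18a, with 0.20 and 0.08, were not. No test of the difference between paralogs was made.

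By subunit as the symbols give it, 2 of the 47 large subunit genes were higher and 2 lower in DM at 5 mM, and 7 higher and 4 lower at 25 mM. Of the 29 genes with small subunit symbols 5 were higher and 2 lower at either level. Mrps36, now assigned outside the ribosome, is 1 of the 2 lower at 25 mM. Among all probe sets on MA, 12% were higher and 17% lower at 5 mM, and 15.3% higher and 20.3% lower at 25 mM, and no difference between subunits was tested. The median changes were 0.05 and 0.18 for the large subunit, and 0.12 and 0.07 for the small. By descent, 4 of the 45 genes with a bacterial homologue were higher and 3 lower at 5 mM, and 6 higher and 4 lower at 25 mM; of 29 without one, 3 were higher and 1 lower at 5 mM, and 6 higher and 2 lower at 25 mM, a difference that was not tested either.

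Within the family the genes did not vary as a unit from culture to culture. Over 2850 pairs of genes the median Pearson correlation across the 12 cultures was 0.06, with quartiles of -0.28 and 0.37, and it was 0.01 after the group means were removed. The cultures share their arrays and scaling. With the group means kept, Mrps28 had its highest correlations with Mrpl22 (0.89), Mrpl16 (0.86) and Mrpl23 (0.86), and its lowest with Mrpl24 (-0.88) and Mrps25 (-0.87). Mrps28, Mrpl22 and Mrpl16 were called higher in DM, and Mrpl24 and Mrps25 lower. These correlations therefore largely restate the changes between media and are no separate support for them. As a level, the median over the 76 genes of the deviation from each gene's mean was 0.02 to 0.11 in the 6 DM cultures and -0.07 to 0.00 in the 6 GM cultures on the log2 scale, so that the media did not overlap, though by a narrow margin. For the large subunit genes alone the media overlapped, with DM down to -0.03 and GM up to 0.01. For the small subunit genes DM went down to 0.04 and GM up to 0.03. The same median over all probe sets ran from -0.03 to 0.02 in the DM cultures and from 0.03 to 0.08 in the GM cultures.

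**Figure D5:**
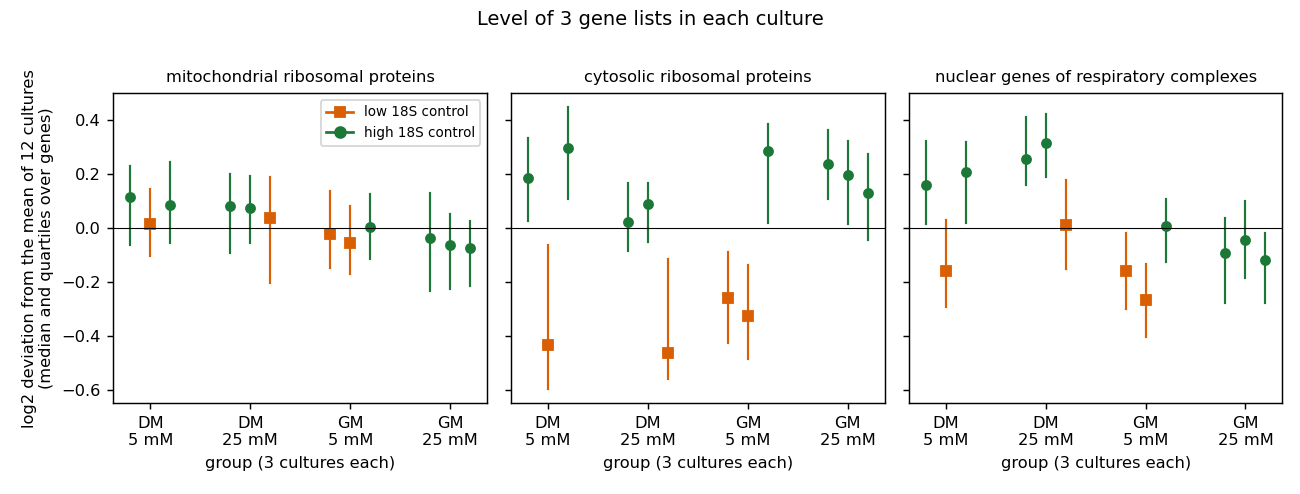
Median (point) and quartiles (line) over genes of the log2 deviation from the mean of 12 cultures, for each culture, in 3 gene lists; groups on the x axis, orange squares for cultures with a low 18S control and green circles for those with a high one. The mitochondrial ribosomal proteins stay between -0.07 and 0.11, with DM above GM by a narrow margin. The cytosolic ribosomal proteins split by 18S control, at -0.46 to -0.26 in the 4 low cultures. The respiratory genes range more widely, from -0.27 to 0.32, and lie lower in the low cultures of each group that holds both kinds.

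The cytosolic ribosomal proteins, taken by the symbols Rpl and Rps with a digit, split by the 18S control. Their culture medians lay at -0.46 to -0.26 in the 4 cultures with a low 18S control and at 0.02 to 0.30 in the other 8. Of 47 tested, 1 was higher and 1 lower in DM at 5 mM (all probe sets 7.52% and 10.1%, MA 12% and 17%). At 25 mM 3 were higher and 1 lower (all probe sets 9.83% and 11.5%, MA 15.3% and 20.3%). Those higher include Rps6kb2, a kinase, and Rps19bp1, a binding protein, which the symbol pattern takes in although neither is a part of the ribosome; Rps25, which is, was lower by 0.50 at 5 mM (limma, adjusted p = 0.0393) and by 0.55 at 25 mM (adjusted p = 0.0223). In a fit with that split as a term, 2 of the mitochondrial ribosomal proteins were higher in the low cultures (2.63%, against 8.78% of all probe sets) and 11 were lower (14.5%, against 5.90% of all probe sets), led by Mrpl52, which fell by 0.61. With the split as a block, 10 of the family were higher and 5 lower in DM at 5 mM (all probe sets 10.1% and 11.8%). At 25 mM 19 were higher and 6 lower (all probe sets 11.3% and 14.1%). These shares, and those of the high cultures below, are over both designs, and MA alone was not counted. The block lost no call, and added Mrpl3, Mrpl18 and Mrpl23 as higher and Mrpl4 as lower at 5 mM, and Mrpl12, Mrpl23, Mrpl32, Mrpl41, Mrpl46, Mrps14 and Mrps18b as higher at 25 mM. Among the 8 high cultures alone 3 were higher and 1 lower at 5 mM (all probe sets 4.97% and 5.37%), where GM has 1 culture left that is assumed to vary like the others, and 13 higher and 2 lower at 25 mM (all probe sets 9.03% and 10.8%), with Mrpl32, Mrpl41 and Mrpl46 added as higher at 25 mM.

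The nuclear genes of the respiratory complexes, which outside complex II have partner subunits made by the mitochondrial ribosome, were called in 1 direction. Of 77 tested, 12 were higher in DM at 5 mM (15.6%) and 23 at 25 mM (29.9%), with 0 lower at either (limma). Among all probe sets 7.52% and 9.83% were called higher, and on MA 12% and 15.3%. Those called lower were 10.1% and 11.5% of all probe sets, and 17% and 20.3% on MA. The median changes of the respiratory genes were 0.20 and 0.25, against 0.10 and 0.13 in the mitochondrial ribosomal proteins. The difference between the lists was not tested. The largest were muscle isoforms of cytochrome c oxidase, Cox6a2, with 3.44 at 5 mM and 3.21 at 25 mM, and Cox8b, with 2.99 and 2.44. Ndufs4, a complex I subunit (0.47 and 1.08), and Uqcrq, a complex III subunit (0.96 and 0.63), were also higher at both. No mitochondrial ribosomal protein gene changed by as much as Cox6a2 or Cox8b. The respiratory list also varied with the 18S control. Its culture medians in DM at 5 mM were -0.16 in the low culture and 0.16 and 0.21 in the others. In DM at 25 mM they were 0.01 in the low culture and 0.26 and 0.32 in the others. In GM at 5 mM they were -0.16 and -0.27 in the low cultures and 0.01 in the other. The part of the 18S split in the calls of this list was not tested.

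Genes that act with the mitochondrial ribosome changed singly. The counts of all the lists that follow stand beside 7.52% higher and 10.1% lower among all probe sets at 5 mM. At 25 mM the shares were 9.83% higher and 11.5% lower. On MA they were 12% and 17% at 5 mM, and 15.3% and 20.3% at 25 mM. No list was tested against these shares. Of 4 ribosomal components outside the symbol rule, Ptcd3, a small subunit protein with RNA-binding repeats, was higher in DM by 0.60 (SE 0.14, limma, adjusted p = 0.00475) at 5 mM and by 0.85 (SE 0.14, adjusted p = 0.000278) at 25 mM, and Dap3, a GTP-binding protein of the small subunit, was lower by 0.49 (SE 0.10, adjusted p = 0.00241) and 0.35 (SE 0.10, adjusted p = 0.0193). Of 10 translation factors 0 were called at 5 mM and 1 at 25 mM, the elongation factor Gfm1, higher by 0.59. Of 19 genes for assembly of the ribosome and modification of its rRNA, 0 were called at 5 mM, and at 25 mM 1 was higher, the GTPase Noa1 (0.69), and 2 lower, the GTPase Mtg1 (-0.43) and Mterf4 (-0.59), which acts with a methyltransferase of the rRNA.

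Of 16 genes tested in a list of mitochondrial aminoacyl-tRNA synthetases, 2 were higher and 1 lower in DM at each glucose level. The list also takes in Gatc and Qrsl1, amidotransferase subunits that are not synthetases. Nars2, for asparagine, was higher by 1.098 (SE 0.25, limma, adjusted p = 0.00932) at 5 mM and 1.51 (SE 0.25, adjusted p = 0.000479) at 25 mM. Ears2, for glutamate, was higher by 0.75 and 1.004, and Hars2, for histidine, lower by 0.51 and 0.57. Ears2 averaged 53.6 and 57.6 in DM at 5 and 25 mM, but 24.0 and 19.6 in GM, below the MA filter of 35.5. It passed that filter only through its DM values. Of 18 genes of mitochondrial DNA transcription and RNA stability, 2 were higher and 1 lower at 5 mM, and 3 higher and 2 lower at 25 mM. Lrpprc, which stabilises the mitochondrial mRNAs that the ribosome reads, was higher by 0.61 (SE 0.16, limma, adjusted p = 0.00951) and 0.68 (SE 0.16, adjusted p = 0.00387). Polg, the catalytic subunit of the mitochondrial DNA polymerase, was lower by 0.49 and 0.50, and its accessory subunit Polg2 by 0.87 at 25 mM (adjusted p = 0.00348). Trmt10c, which works in the cutting of tRNAs from mitochondrial transcripts, was higher by 0.55 and 0.67. Its GM means at 5 and 25 mM were 34.2 and 35.7, about at the MA filter, against 59.9 and 68.4 in DM.

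Of 12 genes for membrane insertion and quality control of the products, 3 were higher at 5 mM and 4 at 25 mM, with 0 lower. They include Hspa9, the mitochondrial Hsp70 chaperone (0.39 and 0.50), and Letm1, an inner membrane protein (0.51 and 0.49), at both levels, Lonp1, a matrix protease, at 5 mM (0.76), and Yme1l1, an inner membrane protease, at 25 mM (0.59). Of 9 regulators of mitochondrial biogenesis 0 were called at 5 mM and 1 at 25 mM, the coactivator Ppargc1b, higher by 0.70 (SE 0.23, limma, adjusted p = 0.0308).

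The reliability of a single probe set can be read from genes with several. At 5 mM, 4 other probe sets of 3 called genes were tested, of which 3 had the same sign and 0 were called. At 25 mM, 13 other probe sets of 7 called genes were tested, of which 8 had the same sign, 2 were also called in the same direction and 0 in the opposite one. Of the other probe sets of genes that were not called, 2 of 59 were called higher at 5 mM (Mrpl41 and Mrpl49), and 1 of 50 was called higher (Mrpl49) and 1 lower (Mrpl11) at 25 mM. That of Mrpl49, a large subunit protein found only in mitochondria, gave 1.02 (SE 0.16) at 5 mM and 0.57 (SE 0.16) at 25 mM. A few probe sets stand on both designs. That of Mrpl43 gave 0.01 (SE 0.11) on MA and 0.13 (SE 0.18) on MB at 5 mM, and 0.28 (SE 0.11) on MA and 0.25 (SE 0.18) on MB at 25 mM, which differ by less than their errors. That of Mrpl27 gave -0.02 (SE 0.14) on MA and 0.20 (SE 0.16) on MB at 5 mM, and 0.13 (SE 0.14) on MA and 0.18 (SE 0.16) on MB at 25 mM. In the comparisons of media the 2 of Mrpl52 had the same sign on both designs but for 1 case. There a probe set gave -0.13 (SE 0.22) on MA and 0.16 (SE 0.18) on MB at 25 mM. None of these values was called. The number of arrays, 3 a group, limits the precision of every value.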

How the data were processed

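Total RNA of 12 C2C12 cultures was hybridised to 24 arrays of 2 designs. The deposited tables hold 1 intensity per probe set and array on a linear scale; how the authors computed and scaled these intensities is not given in the sources used here. Leaving out the highest and lowest 2% of values, array means were 149 on both designs, so the intensities had been scaled to a common trimmed mean. From there, log2(intensity + 20) was fitted per design with limma 3.58.1 (R 4.3.3): 4 group means over 12 arrays, probe sets above the 40th percentile of mean intensity (35.5 on MA, 63.7 on MB; 27081 in all), eBayes with a trend, two-sided tests and Benjamini-Hochberg adjustment within a design. The pseudocount understates changes of dim genes.

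Genes were named from the platform annotation where a probe set names 1 gene (20380 probe sets on MA and 14661 on MB; 691 and 245 name several). All 76 genes matched RefSeq by symbol. Coordinates are given for promoter stretches alone. Genes named by rule were, of this family, the 8 called with the largest rise and the 8 with the largest fall in each comparison of media, any called with glucose, the S18 paralogs and 8 further genes, and of other lists the 3 called with the smallest p. Mrpl4, Mrpl17, Mrpl18, Mrps24's neighbours, Mrpl23, Mrpl27, Mrpl32, Mrpl43, Mrpl46, Mrpl49, Mrpl51, Mrpl52, Mrps11, Mrps14, the divergent partners and the genes whose promoters are printed were named after their values were seen. The family and the lists were chosen with earlier results of these data known. The fit was tested on simulated data. No columns were identical.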

Additional observations from a re-analysis of the deposited data

How the results depend on the processing

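Each comparison was repeated under 24 alternatives: pseudocounts of 1 and 64, no filter and a filter at the 60th percentile, median centring, quantile normalization, the replicate number as a block, the 18S split as a block, the cultures with a high 18S control alone, eBayes without a trend, other probe sets, and each culture left out. At 25 mM the count of genes higher in DM, 12, became 28 with median centring and 19 with the 18S block, and the count lower, 6, became 2 with median centring and 2 in the high 18S cultures. At 5 mM the count higher, 7, became 3 with the replicate block, 3 in the high 18S cultures and 3 without a trend, and the count lower, 4, became 1 in the high 18S cultures. For 5 against 25 mM in DM, the count of higher genes, 0, became 1 with the 60th percentile filter and 1 with the 18S block; for the interaction it became 1 with a pseudocount of 64, with the 60th percentile filter, with quantile normalization and with the 18S block. The causes of these shifts were not tested. With 1 culture left out the counts ran from 11 to 15 higher and 2 to 6 lower at 25 mM, from 3 to 10 higher and 2 to 5 lower at 5 mM, from 0 to 1 higher for glucose in DM and for the interaction, and stayed at 0 otherwise. With a second probe set the changes turned to -0.43 in Mrpl17 and to -0.28 at 25 mM and -0.42 at 5 mM in Mrps10, and without the types that can bind several transcripts to -0.42 in Mrpl15. Calls held under every alternative that could bear on them in Mrpl22, Mrpl24 and Mrps28 at both glucose levels, and in Mrpl3 and Mrpl16 at 25 mM; of these Mrpl3 alone has a second probe set, so the choice of probe set was no test of the other 4. Same-numbered cultures of different groups had deviations with correlations from -0.56 to 0.52 on MA (mean -0.06), against a mean of 0.03 for other numbers. These values gave no sign of pairing by number but cannot exclude it. The 18S split fell on different numbers in different groups and also enters the deviations.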
